A study of Mus musculus with 2 samples.

Results

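Mir148a, Mir148b and Mir152 are the mouse microRNA genes of the miR-148 and miR-152 family. They were taken from the count tables by their Ensembl identifiers in GENCODE M21, and all 3 were found among 2202 annotated microRNA genes. Levels were read from small RNA libraries of total RNA from the gastrocnemius, a calf muscle, of female mice aged 25 days of the F1 hybrid strain B6CASTF1/J. The data form 1 group of 2 biological replicates, untreated as far as the labels tell, with no second tissue, age or genotype. The source females carry different numbers in the labels but an identical donor identifier, so each SD below measures a spread between libraries that may be technical. The p-values below set a difference between these libraries against counting error alone. Replicate 1 held 1573213 counts on the strand of microRNA genes and replicate 2 held 5429127, which makes replicate 2 the more precise. CPM are those counts scaled to a total of 1000000.

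A microRNA gene is transcribed into a hairpin, which is cut into a 5p and a 3p strand, and one of these is loaded into an Argonaute protein. The loaded strand pairs with target transcripts mainly through its seed, bases 2 to 8 from the 5′ end, so microRNAs with the same seed are expected to share many targets. For the miR-148 and miR-152 family the 3p strand is the one usually described as active. Known targets include Dnmt1, the maintenance DNA methyltransferase. miR-148a is abundant in liver and pancreas and is known to promote the differentiation of muscle precursors.

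The mature 3p strands show what the members share and where they part. They are given 5′ to 3′ from RefSeq (GRCm38.p6), with the seed in capitals.
mmu-miR-148a-3p: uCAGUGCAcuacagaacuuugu
mmu-miR-148b-3p: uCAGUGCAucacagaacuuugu
mmu-miR-152-3p: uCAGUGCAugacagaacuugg
The seed was identical in all 3, and no other of the 1738 mature mouse microRNAs in that table carried it (3 of 1738, 0.173%). Positions are counted from 1 at the 5′ end. From miR-148a-3p to miR-148b-3p there were 2 substitutions, C9U and U10C, so 20 of 22 bases were identical. From miR-148a-3p to miR-152-3p there were 3 in the 21 bases compared, C9U, U10G and U20G. From miR-148b-3p to miR-152-3p there were 2, C10G and U20G. Outside the 3′ end the strands thus differ only at the bases directly after the seed.

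The 5p strands diverge more and split the family differently, again with bases 2 to 8 in capitals.
mmu-miR-148a-5p: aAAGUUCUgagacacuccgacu
mmu-miR-148b-5p: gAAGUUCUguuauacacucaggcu
mmu-miR-152-5p: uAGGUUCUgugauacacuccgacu
miR-148a-5p and miR-148b-5p shared a seed that occurred in 2 of the 1738 mature microRNAs, and the seed of miR-152-5p occurred in 1. The deposited counts belong to whole hairpins, so a level below is the sum of both strands of a gene.

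The hairpins are shown because reads were assigned to them; capitals mark the 5p and then the 3p strand.
Mir148a: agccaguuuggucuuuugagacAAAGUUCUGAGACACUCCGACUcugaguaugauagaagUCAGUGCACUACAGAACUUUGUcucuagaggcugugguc
Mir148b: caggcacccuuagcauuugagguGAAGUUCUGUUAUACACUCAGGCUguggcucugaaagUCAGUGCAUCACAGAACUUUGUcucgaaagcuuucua
Mir152: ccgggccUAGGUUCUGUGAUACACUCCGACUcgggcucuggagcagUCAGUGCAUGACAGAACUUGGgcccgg
Mir148a (99 bases) and Mir148b (97 bases) had GC contents of 45.5% and 45.4%, and the shorter Mir152 hairpin (73 bases) had 61.6%. Reads with several alignments were given to no gene and made up 68.6% (replicate 1) and 69.7% (replicate 2) of the reads, so the members were searched for repeats. Each mature strand, 3p and 5p, was held whole by 1 microRNA gene only, its own. The longest run of a member's 3p strand in any other of the 2202 microRNA genes was 12 bases, between Mir148a and Mir148b. None of the 6 mature strands was found whole in a transcript of another gene among 141767 GENCODE transcripts; introns and intergenic sequence outside those transcripts were not searched.

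The loci lie apart from each other and from other microRNA genes. In mm10, Mir148a (ENSMUSG00000065505.1) lies on chromosome 6 at 51269812 to 51269910, on the reverse strand, and overlaps no other annotated gene. Mir148b (ENSMUSG00000065560.1) lies on chromosome 15 at 103285125 to 103285221, forward strand, in an intron of Copz1. Mir152 (ENSMUSG00000065515.1) lies on chromosome 11 at 96850393 to 96850465, forward strand, in an intron of Copz2. Copz1 and Copz2 encode paralogous zeta subunits of the COPI vesicle coat, and each is transcribed in the direction of its microRNA. The nearest other annotated microRNA gene was 351722 bases away for Mir148a (Gm22914), 65234 for Mir148b (Mir6963) and 213303 for Mir152 (Mir8103), so none sat in a microRNA cluster.

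Their surroundings were nevertheless alike in part. Each member lay near a gene of the Nfe2 family of leucine zipper transcription factors: Nfe2l3 at 162760 bases from Mir148a, Nfe2 at 26722 from Mir148b and Nfe2l1 at 20425 from Mir152. Within the largest of these distances, that of Mir148a, of any Nfe2-family gene there were 5 of the 2202 microRNA genes (0.227%). The members are among these 5 by construction. These neighbourhoods were looked up after the positions of the members were known and are descriptions only.

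All 3 genes were expressed in both libraries at moderate levels, and Mir148a was the most abundant. Mir148a had 603 CPM in replicate 1 (949 counts, exact Poisson 95% interval 565 to 643 CPM) and 601 CPM in replicate 2 (3262 counts, 580 to 622 CPM). Mir152 had 322 CPM in replicate 1 (507 counts, 295 to 352 CPM) and 349 CPM in replicate 2 (1896 counts, 334 to 365 CPM). Mir148b had 84.5 CPM in replicate 1 (133 counts, 70.8 to 100.2 CPM) and 88.4 CPM in replicate 2 (480 counts, 80.7 to 96.7 CPM). The order Mir148a, Mir152, Mir148b held in both libraries, and the intervals of different genes did not overlap, whereas those of the same gene in the 2 libraries did. These intervals cover counting error only, since no molecular identifiers were used.

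**Figure D1:**
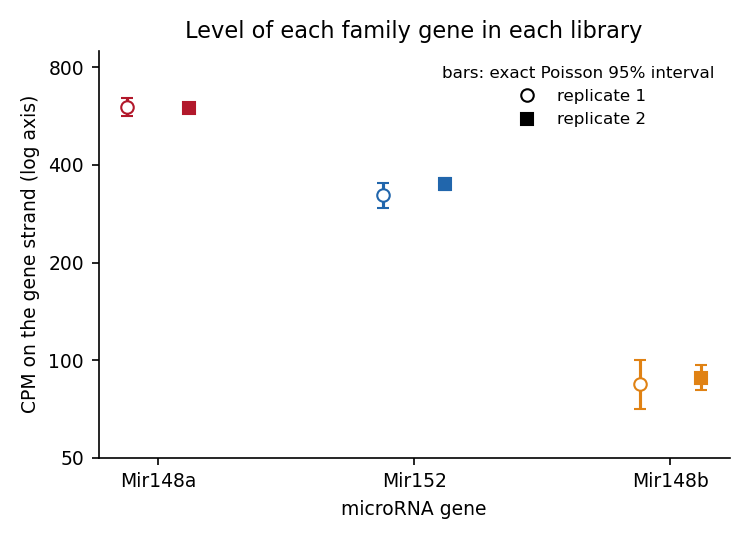
Level of each family gene (CPM on the gene strand, log axis) in replicate 1 (open circles) and replicate 2 (filled squares), with exact Poisson 95% intervals. The pair of points of each gene lie together, at 603 and 601 CPM for Mir148a, 322 and 349 for Mir152, and 84.5 and 88.4 for Mir148b.

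Averaged over the libraries, Mir148a had 602 CPM ± 1.69 (SD, n = 2), Mir152 336 ± 19.1 and Mir148b 86.5 ± 2.74. By mean level they ranked 87, 120 and 175 among the 2202 microRNA genes, of which 324 reached at least 2 CPM in both libraries. The 3 genes together held 0.102% ± 0.00201 (SD, n = 2) of the counts on microRNA genes. The share was 0.101% in replicate 1 (1589 counts, exact Clopper-Pearson 95% interval 0.0961 to 0.106%) and 0.104% in replicate 2 (5638 counts, 0.101 to 0.107%). The family was thus a small part of the counts assigned to microRNA genes in this muscle. Reads with several alignments are in neither these shares nor the ranks, so genes with repeated sequences may rank too low. A share of the whole microRNA pool cannot be read from these counts. In RNA from whole tissue, few cells with much of a microRNA and many cells with little of it cannot be told apart.

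Within the family, Mir148a supplied more than the other members combined. Its share of the family counts was 59.7% in replicate 1 (exact 95% interval 57.3 to 62.1%) and 57.9% in replicate 2 (56.6 to 59.2%). The mean was 58.8% ± 1.32 (SD, n = 2). Mir152 supplied 31.9% in replicate 1 (29.6 to 34.3%) and 33.6% in replicate 2 (32.4 to 34.9%), averaging 32.8% ± 1.22. Mir148b supplied 8.37% in replicate 1 (7.05 to 9.84%) and 8.51% in replicate 2 (7.80 to 9.27%), averaging 8.44% ± 0.101. The pair encoded within paralogous host genes was therefore unequal, with 0.262 counts of Mir148b per count of Mir152 in replicate 1 and 0.253 in replicate 2.

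**Figure D2:**
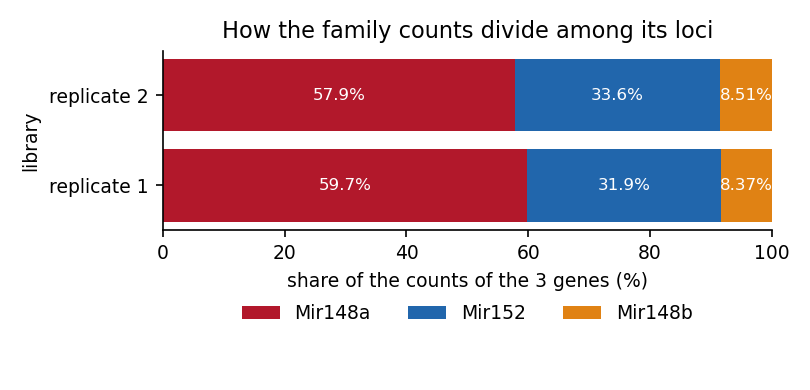
Share of the summed counts of Mir148a, Mir152 and Mir148b (x axis, %) in each library (y axis). Mir148a holds 59.7% and 57.9%, Mir152 31.9% and 33.6%, and Mir148b 8.37% and 8.51%.

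Because the sequenced molecules are mature strands of nearly one length, counts were compared between members without division by hairpin length. Divided by the length of the 3p strand, the shares were 57.9% for Mir148a, 33.8% for Mir152 and 8.31% for Mir148b. Divided by hairpin length they were 52.6%, 39.7% and 7.70%, in the same order.

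The ratios between members were alike in the libraries. Mir148a exceeded Mir148b by ratios of 7.14 (replicate 1) and 6.80 (replicate 2), which average 6.97 ± 0.240 (SD, n = 2). Mir148a exceeded Mir152 by ratios of 1.87 and 1.72, which average 1.80 ± 0.107. A two-sided Fisher's exact test on the counts of a pair does not depend on how libraries are scaled, and none of the 3 pairs passed it after Benjamini-Hochberg adjustment over the pairs. For Mir148a against Mir152 the log2 change of the ratio from replicate 1 to replicate 2 was -0.12 (exact 95% interval -0.30 to 0.056, adjusted p = 0.554). For Mir148a against Mir148b it was -0.070 (-0.38 to 0.23, adjusted p = 0.740), and for Mir148b against Mir152 -0.051 (-0.37 to 0.27, adjusted p = 0.740). The intervals leave room for a shift of the Mir148a to Mir152 ratio of up to 0.30 on the log2 scale, and for a somewhat larger one in the pairs with Mir148b, which rest on 133 counts in replicate 1.

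None of the members passed the comparison of the libraries when scaled to library totals, where many microRNA genes did. The 364 genes whose counts in both libraries summed to 10 or more entered an exact binomial test (two-sided, odds set by the library totals), and 165 of them (45.3%) passed at a Benjamini-Hochberg adjusted p under 0.05. None of the 3 members did so, also at an unadjusted p under 0.05. The test compares these 2 libraries and not conditions. For Mir148a the log2 ratio of replicate 2 over replicate 1 was -0.0063 (exact 95% interval -0.11 to 0.10, exact binomial test, adjusted p = 0.970). For Mir148b it was 0.061 (-0.22 to 0.35, adjusted p = 0.840), and for Mir152 0.11 (-0.026 to 0.26, adjusted p = 0.198).

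The median size of the log2 ratio, sign ignored, was 0.061 over the 3 members and 0.29 over the 364 tested genes. A smaller ratio than that of Mir148a was seen in 9 of the 364 genes, than that of Mir148b in 44 and than that of Mir152 in 75. At levels from 43.2 to 1204 CPM, a range around the levels of the members, 76 of 137 genes passed the test. With edgeR, the 324 detected genes gave a common biological coefficient of variation of 24.6% over both libraries as 1 group. For single genes this amounts to log2 ratios with an SD of 0.50. All 3 members and 241 of the 364 tested genes lay within it.

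**Figure D3:**
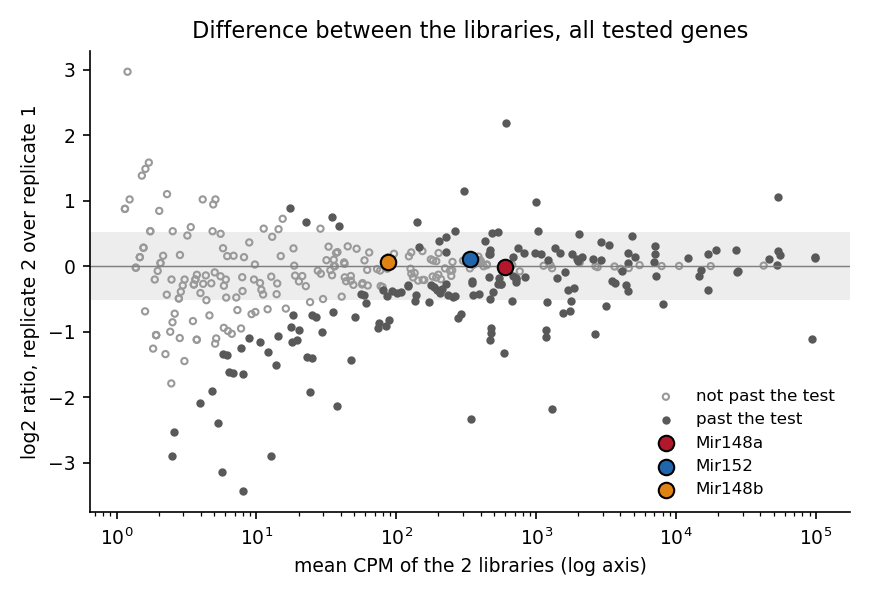
Log2 ratio of replicate 2 over replicate 1 (y axis) against mean CPM (x axis, log) for the 364 tested genes, with filled points for the 165 past the exact binomial test and a grey band for the SD of 0.50 of a single ratio. Mir148a (-0.0063), Mir148b (0.061) and Mir152 (0.11) lie near the zero line within the band.

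These results depend on the scaling. The median log2 ratio over the tested genes was -0.15 with library totals, so relative to the typical gene all 3 members were slightly higher in replicate 2. With DESeq2 size factors, which moved that median to -0.017, Mir148a had a log2 ratio of 0.13 (exact binomial test, adjusted p = 0.0375) and Mir152 one of 0.25 (adjusted p = 0.00148), both past the test, while Mir148b had 0.19 (adjusted p = 0.273) and did not pass. With TMM scaling Mir152 passed at 0.19 (exact binomial test, adjusted p = 0.0164) and the other members did not. All of these lay within the SD of 0.50.

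Other genes at like levels were found by distance in log2(CPM + 1) over the 2 libraries. Nearest to Mir148a were Mir150, with 574 and 580 CPM in replicates 1 and 2, and Mir872, with 669 and 678 CPM. Nearest to Mir152 were Mir494, with 339 and 332 CPM, and Mir101a, with 353 and 358 CPM. Nearest to Mir148b were Mir323, with 82.6 and 91.0 CPM, and Mir30c-1, with 83.9 and 84.4 CPM. Mir30c-1 shares a run of 28 bases with Mir30c-2 and Mir101a one of 20 bases with Mir101b, so their levels are uncertain. Mir150 is known from lymphocytes, and Mir494 and Mir323 lie in the imprinted Dlk1-Dio3 cluster. With 2 libraries of 1 group, likeness here means a like level and nothing more.

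The core of the family seed, the 6 bases agugca at positions 3 to 8, recurs at positions 2 to 7 of the miR-130 and miR-301 microRNAs, so their seeds are shifted by 1 base. They are shown, core in capitals, because most of the seed is common to both families.
mmu-miR-130a-3p: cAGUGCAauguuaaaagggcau
mmu-miR-130b-3p: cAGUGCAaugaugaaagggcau
mmu-miR-301a-3p: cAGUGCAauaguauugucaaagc
In all, 7 of the 1738 mature microRNAs (0.403%) held the core at that shifted position, and the genes of 4 of them, Mir130c, Mir6341, Mir6389 and Mir721, had no count in either library. Mir130a was far more abundant than the family, at 4825 CPM (replicate 1) and 3970 CPM (replicate 2). Mir301 had 116 and 129 CPM and Mir130b 71.8 and 48.6 CPM. Mir301b, with 3 and 10 counts, was listed with them by name but was not among the 7. The 7 are those found in the RefSeq sequences used, so its absence does not mean that its mature strand lacks the core. Of these 4 miR-130 and miR-301 genes, 2 passed the exact binomial test, both higher in replicate 1, a share near the 45.3% over all tested genes, of which 110 were higher in replicate 1 and 55 in replicate 2. These were Mir130a (log2 ratio -0.28, adjusted p = 7.96e-46) and Mir130b (-0.57, adjusted p = 0.00212). The median log2 ratio of the 4 was -0.24, beside -0.15 over all tested genes.

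The miR-29 genes are the other microRNAs best known for repressing DNA methyltransferase transcripts. Mir29a stood at 1920 and 1169 CPM in replicates 1 and 2, and Mir29c at 549 and 389 CPM. Both were higher in replicate 1, with log2 ratios of -0.72 (exact binomial test, adjusted p = 1.33e-103) and -0.50 (adjusted p = 6.91e-16). Mir29b-1, with 18 and 105 counts, and Mir29b-2, with 17 and 25 counts, share a run of 25 bases, so reads placed at both loci would not have been counted and these levels are uncertain. Mir29c shares 22 bases with Mir29b-1, and its level is uncertain too, whereas the longest run of Mir29a found in another microRNA gene was 14 bases. Of the 4 miR-29 genes, 3 passed, all higher in replicate 1 (Mir29a, Mir29b-2 and Mir29c). Mir29b-1 went the other way without passing (log2 ratio 0.72, exact binomial test, adjusted p = 0.0823). The median log2 ratio of the 4 was -0.61. With DESeq2 size factors all 4 passed, 3 higher in replicate 1 and 1 in replicate 2, beside 80 and 95 over all tested genes. With library totals 45.3% of all tested genes passed, 110 higher in replicate 1 and 55 in replicate 2, and the median was -0.15. Over the members of the miR-148 and miR-152 family the median was 0.061.

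**Figure D4:**
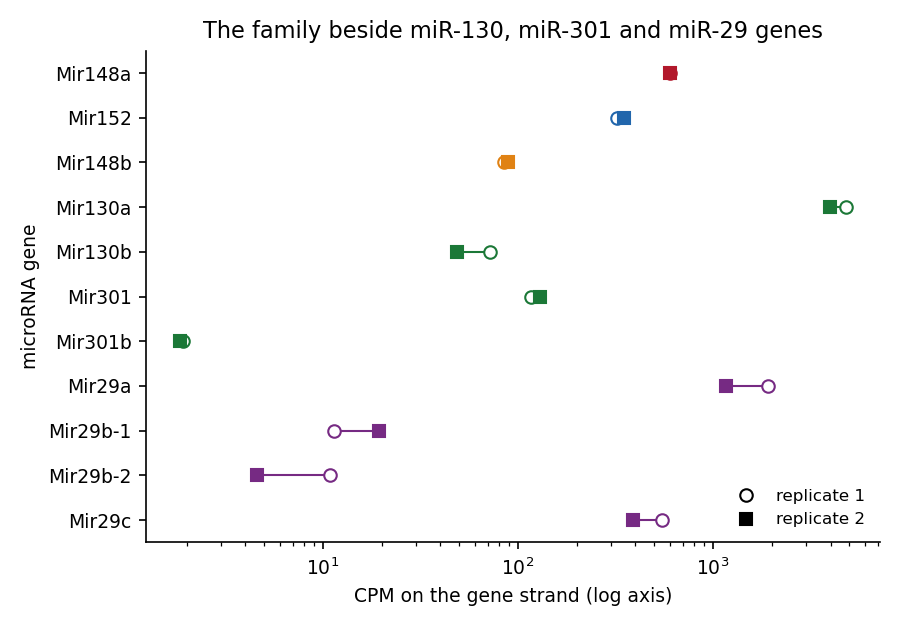
CPM on the gene strand (x axis, log) in replicate 1 (open circles) and replicate 2 (filled squares) for the family, 4 miR-130 and miR-301 genes (Mir130a to Mir301b) and 4 miR-29 genes. Mir130a (4825 and 3970 CPM) and Mir29a (1920 and 1169 CPM) lie above Mir148a (603 and 601 CPM), and their points are farther apart than those of the family.

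Among microRNAs known for muscle differentiation or identity, the libraries differed in both directions. All 20 genes listed could be tested, and by the exact binomial test 8 had a higher level in replicate 2 and 6 in replicate 1, beside 165 of 364 (45.3%) over all tested genes, 55 and 110 by direction. Mir29a and Mir29c of this list are also among the miR-29 genes above, and Mir214 is also in the smooth muscle and fibroblast list below. With DESeq2 size factors the list held 9 and 5, and all tested genes 95 and 80. Mir206, specific to skeletal muscle, had 34864 and 72482 CPM in replicates 1 and 2. Mir208b, from the slow myosin gene Myh7, had 219 and 994 CPM, so these 2 muscle microRNAs were present. Mir378a, also listed, had the highest mean level of all microRNA genes, at 94125 and 103288 CPM. Far below Mir206 were Mir1a-2, with 378 and 318 CPM, and Mir1a-1, with 14.0 and 15.8 CPM. Mir133b had 28.0 and 26.9 CPM, Mir133a-1 12.1 and 22.8 CPM and Mir133a-2 7.63 and 2.03 CPM. Reads with several alignments are not counted, and their part in these low levels was not tested. Mir322, which promotes cell cycle exit in muscle precursors, had 19078 and 14852 CPM. Mir148a, at 603 and 601 CPM, stood at the level of Mir486, with 651 and 717 CPM (a level made uncertain by a run of 22 bases shared with Mir3107), and above Mir499, with 188 and 416 CPM. The median log2 ratio of the 20 genes was 0.10, beside -0.15 over all tested genes.

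Part of the markers of other cell types differed between the libraries. Over all tested genes 165 of 364 (45.3%) passed the exact binomial test, 110 higher in replicate 1 and 55 in replicate 2. With DESeq2 size factors the blood list held 4 higher in replicate 1 and 1 in replicate 2. The epithelial list then held 3, all higher in replicate 1, and all tested genes 80 and 95. The summed level of 6 blood genes was 5404 CPM (replicate 1) and 2589 CPM (replicate 2), and 5 of the 6 were higher in replicate 1 by the exact binomial test, all but Mir150. The sum of 7 smooth muscle and fibroblast genes was 132936 and 63422 CPM, nearly all from Mir143 at 127591 and 59272 CPM, while Mir214 of that list went the other way, from 1674 to 2355 CPM. The sum of 7 epithelial genes was 430 and 238 CPM, with 4 of the 5 tested higher in replicate 1. The endothelial pair, almost all Mir126a, summed to 93329 and 103367 CPM. The 9 neural genes summed to 1590 and 758 CPM, nearly all from Mir338 at 1581 and 749 CPM, the single one of 3 tested that passed. The 4 brown fat genes summed to 587 and 504 CPM; 1 of the 4, Mir455, passed as higher in replicate 1, and the median log2 ratio of the list was 0.38. The neuronal genes Mir124a-1, Mir124a-2 and Mir124a-3 had no count. For liver, gut and pancreas, organs known for abundant miR-148a, 7 genes summed to 176 and 132 CPM, and 1 of the 5 tested passed. This was Mir122, the hallmark of hepatocytes, at 96.6 and 50.3 CPM (exact binomial test, adjusted p = 2.68e-09), while Mir217, known from pancreas, had 9.54 and 9.95 CPM. Mir148a had 603 and 601 CPM in the same libraries, and the part of other cell types in its level was not tested.

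Reads on the strand opposite the members were nearly absent. Mir148a and Mir148b had 0 such reads in both libraries, which at 3 counts allows up to 1.91 CPM (replicate 1) or 0.553 CPM (replicate 2), and Mir152 had 0 in replicate 1 and 2 in replicate 2.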

How the data were processed

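Per the labels, small RNA libraries (size range below 30) of gastrocnemius total RNA were made from 2 biological replicates. The authors deposited raw counts per microRNA gene for each library. Per the labels the assembly is mm10, and the annotation is GENCODE M21, per the deposited readme texts. The aligner is not given in the sources used here, nor is the counting tool. From the values, file column 3 holds reads on the strand of the gene and was used; rows that tally reads without a gene stayed out of totals. Efficiency of ligation and amplification per sequence was not measured, which limits comparisons between genes.

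CPM, exact Poisson and Clopper-Pearson 95% intervals, exact binomial tests over all genes (offset of 0.5 counts in ratios) and Fisher's exact tests were computed in Python 3.11.15 with scipy 1.17.1; edgeR 4.0.16 and DESeq2 1.42.0 (R 4.3.3) gave scaling factors and the coefficient of variation, estimated on genes detected in both libraries. The binomial test was tested on simulated data with Poisson counting error only. Those data held no further variation between libraries, so that check does not cover the spread seen here. Sequences came from RefSeq (GRCm38.p6; 3 of 3 members matched, at the GENCODE positions). Named genes were the members, 10 gene lists, the 2 nearest genes in level per member, and neighbouring or overlapping genes. The members and lists were chosen with earlier results of these data known. With 1 group, no test between conditions was possible.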

Additional observations from a re-analysis of the deposited data

How the results depend on the processing

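Counting reads on either strand gave a family share of 0.134%, and levels of 787 CPM for Mir148a, 113 CPM for Mir148b and 439 CPM for Mir152, because the total over genes is smaller in that column. With all reads as denominator the share was 0.0225%, and the levels were 132, 19.0 and 73.8 per 1000000 reads. With totals without the 10 most abundant genes it was 0.27%, and the levels were 1590, 228 and 887 CPM. TMM and DESeq2 scaling moved no mean level over the libraries by more than the SD between replicates. Their factors shift the libraries in opposite directions (TMM 1.028 for replicate 1 and 0.973 for replicate 2), so the mean was bound to move little. The change within each library shows in the log2 ratios below. Leaving out either replicate returns the family share of the other, 0.101 to 0.104%, so it is no further check. Divided by hairpin length, chosen after seeing the data, the shares of the family counts were 52.6% for Mir148a, 7.70% for Mir148b and 39.7% for Mir152, and divided by 3p length that of Mir148b was 8.31%.

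The log2 ratio of Mir148a, near 0 with library totals, was above 0 under every other scaling or column run: 0.024 with either strand, 0.071 with all reads, 0.02 without the 10 most abundant genes and 0.073 with TMM, none past the test, and 0.13 with DESeq2 size factors, past it. With factors estimated over all genes, chosen after seeing the data, it was 0.17 (TMM) and 0.20 (DESeq2), both past the test. Mir152 passed at 0.19 with all reads as denominator, 0.19 with TMM and 0.25 with DESeq2 size factors, and at 0.29 (TMM) and 0.32 (DESeq2) with factors over all genes. Mir148b passed under none of the alternatives run. Over all genes, 165 passed with library totals, 110 higher in replicate 1 and 55 in replicate 2, against 80 and 95 with DESeq2 size factors and 90 and 76 with TMM. No paired analysis was possible because the samples form 1 group. All values rest on 2 libraries, and the counting interval is widest for Mir148b.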
